A study of Rattus norvegicus with 24 samples.

Results

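CpG island probes with a middle enrichment of methylated DNA in normal rat mammary gland, above most probes and below the highest, were followed into mammary carcinomas. A probe counted as intermediate when its median-centered log2 ratio of enriched to unenriched DNA lay from 1 to 2 in each of the 3 normal mammary glands (NMG) and the probe lay on an autosome. Of the 89403 autosomal probes of the array, 1516 (1.70%) met this rule, out of 93024 probes in all. A further 102 probes lay in the same range in the 3 glands but outside the autosomes, 84 of them on the X chromosome, and were not included. The probes were chosen by their gland values, so their gland levels and the differences between tumors and glands are given as descriptions without a test.

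The study asked how DNA methylation differs between rat mammary carcinomas that followed irradiation before or after puberty and carcinomas of unirradiated rats. All samples came from female Sprague-Dawley rats, with 1 array per sample. There were 3 normal mammary glands of unirradiated rats, 7 carcinomas of rats given 2 Gy of 137Cs gamma-rays to the whole body at 3 weeks of age (IR-3W), 7 carcinomas of rats given the same dose at 7 weeks (IR-7W) and 7 carcinomas of unirradiated rats (Spontaneous). From the age of 9 weeks, rats of all groups ate AIN-76A diet with corn oil, per the labels. Tumors IR-3W6 and IR-3W7 came from the same rat, as did IR-7W1 and IR-7W2. Glands and tumors are tissues of mixed cells, and neither the cell makeup nor the age of the rat at sampling was analysed here.

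CpG islands are stretches of DNA rich in the dinucleotide CG, many of them at gene promoters, and most are unmethylated in normal tissues. A minority carries 5-methylcytosine, for example at imprinted genes, at genes of the germ line and on the inactive X chromosome of females. Tumors commonly lose methylation over much of the genome while single islands gain it, so an island with a middle level can move either way. Here methylated fragments were captured with a methyl-CpG binding domain protein and labeled with Cy5, and unenriched DNA of the same sample was labeled with Cy3. The log2 ratio of the dyes therefore rises with the methylated CpGs of a fragment, but it is not a percentage of methylated molecules, and partial methylation in all cells cannot be told apart from full methylation in some of them. A ratio of 1 stands for a 2-fold enrichment above the median probe of the array. The ratio was not adjusted for the melting temperature of the probe, so a middle ratio need not mean a middle methylation level.

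The series has a few features that touch every value below. All 3 glands were scanned on the same day, together with a single tumor (Spontaneous3), so tissue and scan day can hardly be told apart. The spread of the log2 ratio over autosomal probes was 1.40, 1.18 and 1.49 (SD) in NMG1, NMG2 and NMG3. In the tumors it had a median of 1.42, with IR-3W1 highest at 2.19 and Spontaneous7 and Spontaneous4 lowest at 1.14 and 1.16. In both channels of all 24 arrays, 1484 of the 1516 intermediate probes were well above background, against 63.2% of all autosomal probes. The files place probes on the rn4 assembly (RGSC 3.4) without naming genes, and genes and probe sequences were not analysed here.

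Within the range, the median of the intermediate probes was 1.38 in NMG1, 1.23 in NMG2 and 1.52 in NMG3. The SD over the 3 glands had a median of 0.21, against 0.26 over all autosomal probes. In tumors the same probes spread out on both sides of the range. The share of intermediate probes that were under 1 in a tumor was 48.9% ± 6.69 (SD, n = 21 tumors), and the share over 2 was 21.01% ± 7.66. Only 30.1% ± 5.81 stayed between 1 and 2.

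The tumors differed in how many probes left the range, and on which side. The share under 1 ran from 32.9% in IR-3W1 through a median of 48.3% to 62.9% in IR-3W2. The share over 2 ran from 7.32% in Spontaneous4 and 7.39% in Spontaneous7 through a median of 21.4% to 38.6% in IR-3W1. IR-3W1 was the one tumor whose median difference from the gland mean was above 0, at 0.16, and IR-3W2 had the lowest, at -0.68. The tumors with the widest and the narrowest arrays thus also held the highest and the lowest shares over 2. When each array was scaled to the same SD with the list of probes kept, the share over 2 in IR-3W1 was 15.4%, in Spontaneous4 15.7% and in Spontaneous7 15.6%. On that scale the shares over 2 still ran from 8.51% in IR-3W7 to 27.0% in Spontaneous5, and the shares under 1 from 45.7% in IR-3W3 to 61.5% in IR-3W2.

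**Figure D1:**
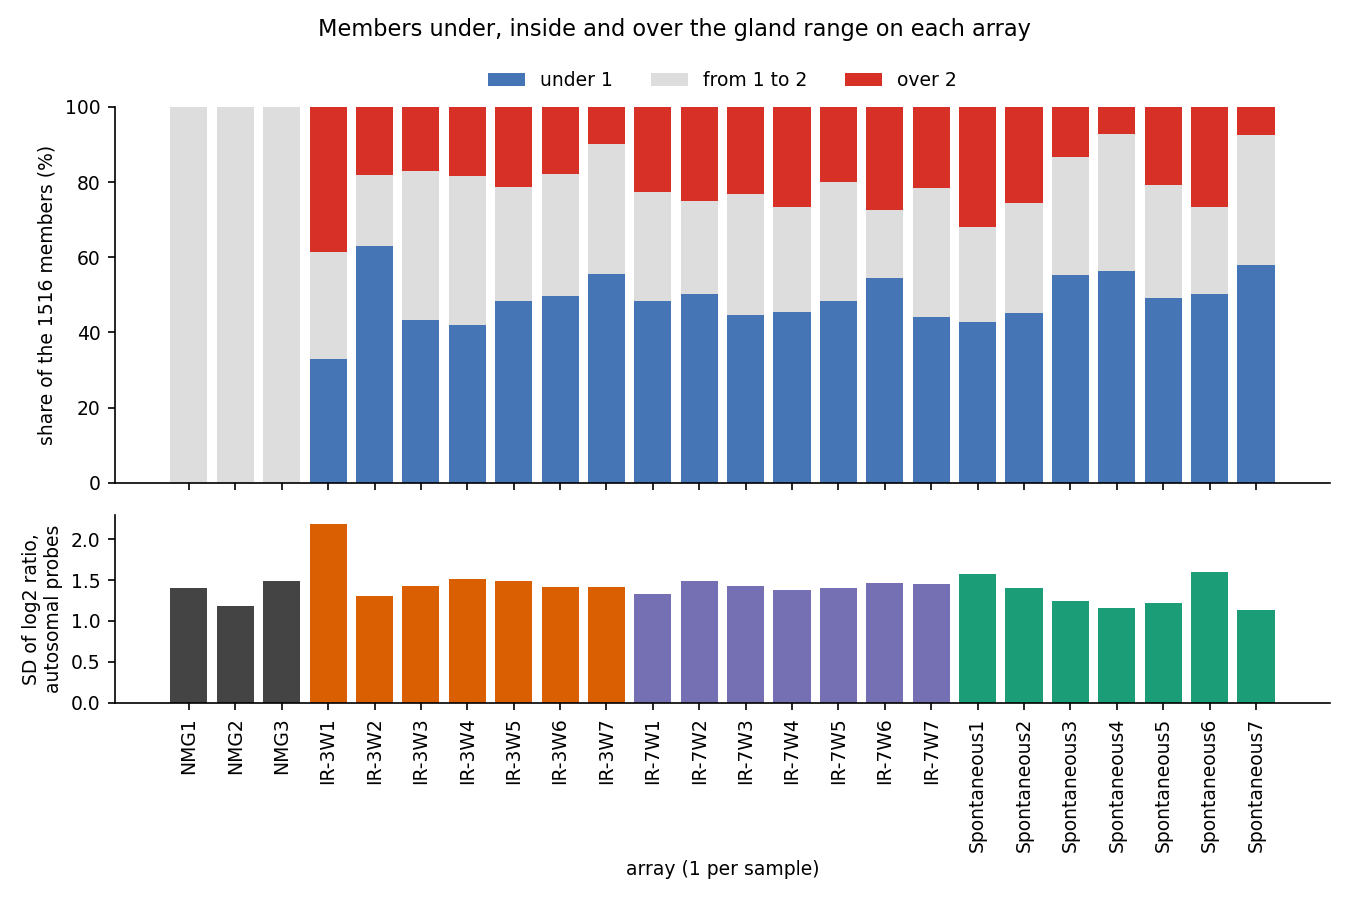
Share of the 1516 intermediate probes under 1, from 1 to 2 and over 2 on each array (upper bars, percent), and the SD of the log2 ratio over autosomal probes of the same array (lower bars, colored by group). The glands lie in the range by the rule, every tumor has probes on both sides of it, and IR-3W1, with the widest array at 2.19, has the largest share over 2 at 38.6%.

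By group, the share under 1 was 47.8% ± 9.72 for IR-3W tumors, 47.9% ± 3.67 for IR-7W tumors and 51.0% ± 5.79 for Spontaneous tumors (SD, n = 7 each). The share over 2 was 20.2% ± 8.82 for IR-3W tumors, 23.8% ± 2.68 for IR-7W tumors and 19.02% ± 9.79 for Spontaneous tumors. The ranges of the 3 groups overlapped for both shares. Shares over 2 ran from 20.1% to 27.5% in IR-7W tumors, from 9.96% to 38.6% in IR-3W tumors and from 7.32% to 31.9% in Spontaneous tumors. With arrays scaled to the same SD, the share over 2 was 22.03% ± 3.35 in IR-7W, 14.15% ± 3.64 in IR-3W and 21.16% ± 4.68 in Spontaneous tumors. The share under 1 was 49.32% ± 4.14, 52.43% ± 5.98 and 49.65% ± 4.05. The order of the groups thus changed with scaling, and IR-3W then had the lowest mean over 2 and the highest under 1. The ranges of the groups still overlapped.

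A gland that had not been used in the choice shows how far a normal sample leaves the range. When the rule was applied to NMG1 and NMG2 alone, it chose 2151 probes, and the unused NMG3 had 7.67% of them under 1 and 21.9% over 2. All 21 tumors had more of those probes under 1 than NMG3, from 27.2% to 54.1%, and 17 had more over 2, from a lowest share of 10.74%. With NMG2 and NMG3 in the rule, 2713 probes were chosen, of which the unused NMG1 had 26.1% under 1 and 17.99% over 2. Again all 21 tumors had more under 1, from 41.3% to 62.8%, and 17 had more over 2, from a lowest share of 7.52%. With NMG1 and NMG3 in the rule, 3660 probes were chosen, and the unused NMG2, which has the narrowest array of the glands, had 58.3% under 1. No tumor had as many of these probes under 1, the highest being 53.3%. NMG2 had 0.33% of them over 2, and all 21 tumors had more, from 6.37% to 54.9%. A surplus of tumors under the range was thus seen against the unused NMG1 and NMG3 and not against the unused NMG2. NMG1 and NMG3 shared a slide, and NMG2 was on another. When NMG1 or NMG3 was the unused gland, the rule therefore still used a gland of its slide, which was not so for NMG2.

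Taken probe by probe, 922 of the 1516 intermediate probes had a tumor mean below the gland mean and 594 had one above it. The median difference was -0.26 on the log2 scale, with the middle of the distribution from -0.84 to 0.35 (25th to 75th percentile) and extremes of -1.85 and 1.67. Over all autosomal probes the median difference was 0.06, and over the other probes with a gland mean from 1 to 2 it was 0.19. Each array was set to a median of 0, so the value over all probes is near 0 by construction and a shift of the whole array could not be seen. The tilt toward lower values depended on the choice of glands and on scaling. With NMG3 left out of the rule, the median difference was -0.02 and 50.9% of the probes were lower in tumors. With arrays scaled to the same SD before the choice, the median difference was -0.04 and 52.2% were lower.

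**Figure D2:**
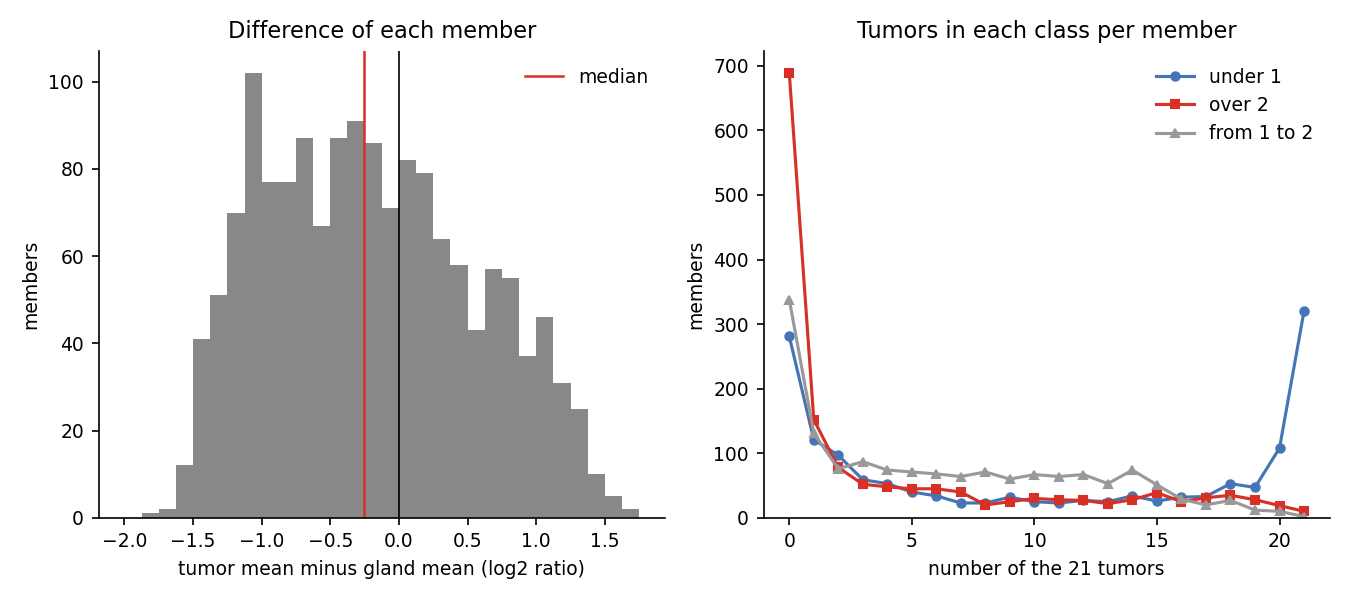
Left, number of intermediate probes by tumor mean minus gland mean (log2 ratio), with the median of -0.26 in red. Right, number of probes against the number of the 21 tumors that were under 1, over 2 or from 1 to 2, where 320 probes were under 1 in all tumors and 10 were over 2 in all of them.

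How unevenly the tumors moved differed between probes on the low side and probes on the high side. In 320 probes (21.1%) all 21 tumors were under 1, and in another 108 probes 20 tumors were. Only 10 probes (0.66%) were over 2 in all 21 tumors, and 19 more in 20 of them. The median gland level was 1.31 in the 320 probes and 1.53 in the 10. At a level of 1.31, leaving the range downward takes a smaller move than leaving it upward, so the 2 counts do not compare moves of equal size. Tumors lay on both sides of the range in 548 probes (36.2%), with at least 1 tumor under 1 and another over 2. The same held for 12.8% of all autosomal probes and for 53.6% of the other probes with a gland mean from 1 to 2. Some tumors were under 1 and none over 2 in 367 probes, and some were over 2 and none under 1 in 269. At least 1 tumor was over 2 in 827 probes. These counts moved with the choice of probes and with the processing. Those under 1 in all tumors numbered 854 of 2713 with NMG1 left out of the rule. They numbered 16 of 514 with normexp background correction, which changed the tumor values as well as the list. Those over 2 in all tumors numbered 36 of 2151 with NMG3 left out of the rule, and tumors lay on both sides in 2040 of 3660 with NMG2 left out.

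Without IR-3W1, Spontaneous4 and Spontaneous7, which have the widest and the narrowest arrays, the count over 2 in all remaining tumors was 20. The highest values came from few tumors in part of the probes. Among the 152 probes that were over 2 in a single tumor, IR-3W1 was that tumor in 103. The 121 probes under 1 in a single tumor were divided more evenly, with 25 in IR-3W2, 23 in IR-3W7 and 16 in Spontaneous7.

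In 413 intermediate probes every tumor was lower than every gland, and in 35 every tumor was higher. The same held for 7.16% and 2.98% of all autosomal probes. Since the gland values of the intermediate probes were set by the rule, nothing is read from these shares. In Spontaneous3, the only tumor scanned on the day of the glands, the median difference was -0.48. Spontaneous3 was below the gland mean in 1072 of the 1516 probes. Compared with NMG2 on the same slide it was lower in 958 of them, with a median difference of -0.33.

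The probes that were low in all tumors and those that were high in many also differed in the level of the other probes of their runs and in the unenriched Cy3 signal. The rule used the Cy5 and Cy3 signals of the glands as the terms of the ratio, so both are given as a description. Probes at most 1000 bp apart were joined into runs, and 1191 of the 13860 autosomal runs held an intermediate probe, of which 958 held a single one. The other probes of these runs, meaning those that were not intermediate by the rule, numbered 8050, and 81.7% of them had a gland mean under 1, while 5.28% had one over 2. Labeled fragments span several neighboring probes, so probes of a run are not independent measurements.

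Probes under 1 in all tumors lay in 289 runs on all 20 autosomes. Their median level was 1.31 in gland and 0.22 in tumors, while the other probes of the same runs had a median of -0.11 in gland and differed from it in tumors by only -0.19. The unenriched Cy3 signal of these probes was high, at a median of 1.102 log2 units above the median of the array, against 0.80 for all intermediate probes and -0.01 for all autosomal probes. From gland to tumor their Cy3 signal differed by -0.04 and their Cy5 signal by -1.17. The spread over tumors was small, with a median SD of 0.29.

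Probes over 2 in some tumors and under 1 in none showed the other arrangement. Their median level was 1.52 in gland and 2.36 in tumors, and their Cy3 signal stood 0.54 above the array median. The other probes of their runs had a median gland level of 0.59 and were higher in tumors by a median of 0.84, about as much as the probes themselves at 0.83. In 8.99% of the probes of this class that had other probes in the run, those other probes were lower in tumors on average. The median SD over tumors was 0.55. Only 3 runs held both a probe under 1 in all tumors and a probe of this kind, and 0 runs held both a probe under 1 in all tumors and one over 2 in all tumors.

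The same gradient appeared when probes were ordered by their difference. Among the 279 probes lower by over 1 in tumors, the other probes of the run differed by a median of -0.18, and among the 119 probes higher by over 1 they differed by 1.15. The gland level of those other probes went from -0.13 to 0.73 between these ends, and the Cy3 signal of the intermediate probes from 1.00 to 0.49. The rule held the gland values of the intermediate probes from 1 to 2 and set no such limit for the other probes, so a return of chosen values toward the level of their run cannot be told apart from a difference between gland and tumor. Whether the high Cy3 signal has a part in the lower tumor values was not tested.

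**Figure D3:**
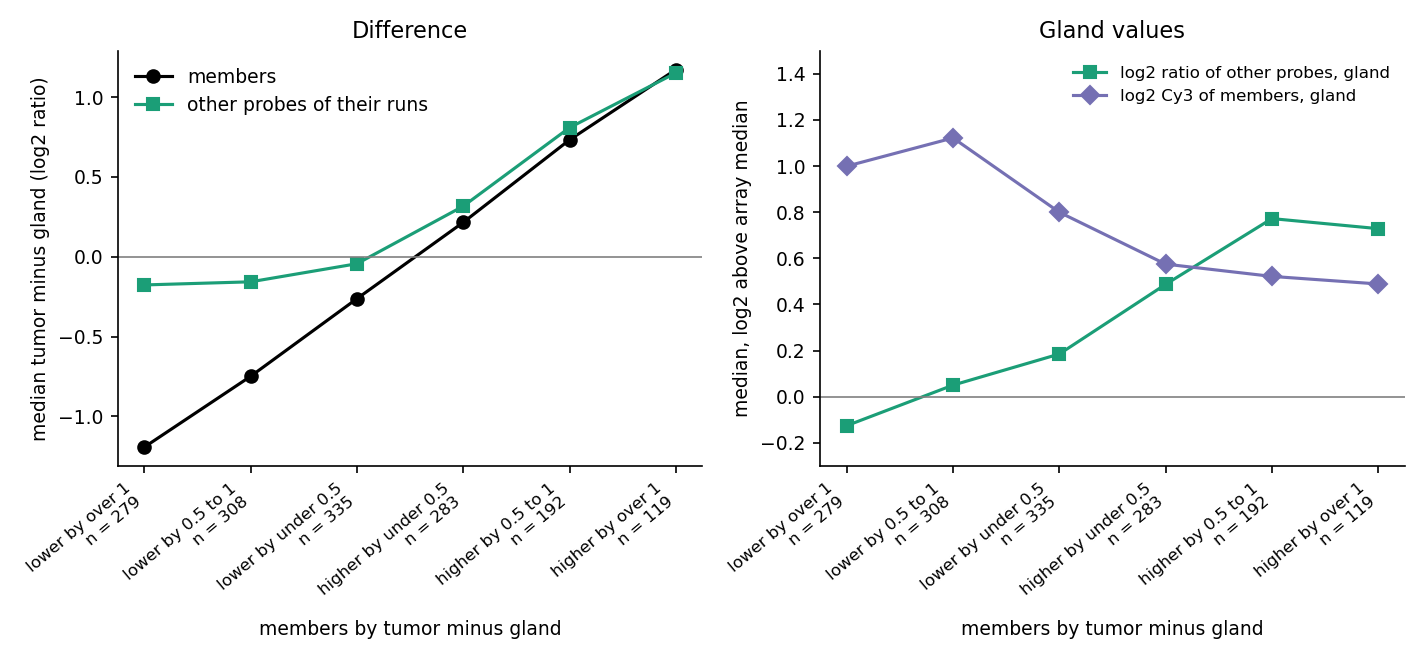
Intermediate probes ordered by tumor mean minus gland mean, with the number in each class. Left, the median difference of the probes and of the other probes of their runs (log2 ratio), which part on the low side (-1.19 against -0.18) and coincide on the high side (1.17 against 1.15). Right, median gland level of the other probes and median Cy3 signal of the intermediate probes, both in log2 units above the array median.

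The immediate neighbors of a probe could be intermediate themselves, so the class with a neighbor from 1 to 2 rests in part on gland values that the rule used. In 571 intermediate probes the higher of the adjacent probes had a gland mean under 1, and these had a median difference of -0.59, with 77.9% lower in tumors. In 827 probes the higher neighbor lay from 1 to 2, with a median difference of -0.09 and 53.0% lower. In 111 probes a neighbor lay over 2, and here the median difference was 0.29 and 31.5% were lower. The median number of tumors under 1 was 17 in the first class, 6 in the second and 1 in the third.

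Neighbors also moved together from tumor to tumor. Across the 21 tumors, Pearson's r was taken between adjacent probes that overlapped or lay under 100 bp apart. Its median was 0.93 over 197 pairs of intermediate probes and 0.86 over 960 pairs of an intermediate and another probe. Over all 54307 adjacent autosomal pairs at that distance it was 0.41. At 100 to 199 bp the medians were 0.87 over 33 pairs, 0.55 over 573 and 0.29 over 12222. These are descriptions across tumors of probes that can share a labeled fragment. When only intermediate probes were joined, they formed 1198 runs, of which 232 held 2 or more. In 209 of the 232, all probes differed from gland in the same direction.

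The spread over tumors was near that of all autosomal probes pooled, but the spread differed with gland level. The SD over the 21 tumors had a median of 0.44 in the intermediate probes, against 0.43 over all autosomal probes. It was 0.57 in probes with a gland mean under -1, 0.36 from -1 to 0 and 0.34 from 0 to 1. In the other probes with a gland mean from 1 to 2 it was 0.57, and in those with a gland mean over 2 it was 0.72. The most variable intermediate probe had an SD of 1.22, and 23 had one over 1. Within groups the median SD was 0.45 for the IR-3W tumors, 0.34 for IR-7W and 0.39 for Spontaneous tumors, and over all autosomal probes it was 0.43, 0.34 and 0.39. Among IR-3W tumors, 358 probes had tumors on both sides of the range, against 153 in IR-7W and 196 in Spontaneous tumors. Intermediate probes were mostly of the shortest design, 89.6% being 45 bp long against 62.6% of all autosomal probes. Their share of a chromosome's probes was lowest on chromosomes 12 and 17, at 1.22%, and highest on chromosome 4.

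The largest decrease was at A_45_P00963175 (rn4 chr1:207206587-207206631). It had a level of 1.799, 1.51 and 1.71 in NMG1, NMG2 and NMG3. The tumors ran from -0.87 in Spontaneous7 through a median of -0.24 to 1.34 in IR-3W3, with a mean of -0.18 ± 0.48 (SD, n = 21). IR-3W3 alone lay from 1 to 2, still below all 3 glands, and the next highest tumor was IR-7W7 at 0.51. The 3 other probes of its run had a gland mean of 2.10 and a mean difference of -1.26.

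The next largest decreases lay in runs of low level. A_45_P07996743 (rn4 chr10:72467481-72467525) had 1.67, 1.98 and 1.96 in the glands, and the tumors ran from -0.59 in Spontaneous7 through a median of 0.24 to 1.01 in IR-7W6. The 4 other probes of that run had a gland mean of -0.34 and a difference of -0.26. A_45_P01945965 (rn4 chr2:155312533-155312577) had 1.12, 1.84 and 1.71 in the glands, and the tumors ran from -0.75 in Spontaneous7 through -0.19 to 0.61 in IR-3W7. All 21 tumors were below all 3 glands at both probes. The 8 other probes of the latter run had a gland mean of -0.10 and a difference of -0.33.

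The largest increase was at A_45_P22691191 (rn4 chr10:56379304-56379348). Its levels were 1.53, 1.06 and 1.62 in the glands, and in tumors they ran from 1.13 in IR-3W3 through a median of 3.03 to 5.32 in IR-3W1. In 19 tumors it was over 2, and the 2 in the range were IR-3W3 and IR-3W2 at 1.53. The 5 other probes of its run had a gland mean of 0.31 and were higher by a mean of 1.83.

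At A_45_P06960305 (rn4 chr8:112799214-112799258) the glands had 1.54, 1.202 and 1.63. The tumors ran from 1.87 in IR-3W3 through 3.02 to 4.57 in IR-3W1, and 20 of 21 were over 2. Every tumor was above every gland. The 7 other probes of its run were higher by 1.49.

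A_45_P07248706 (rn4 chr9:42152209-42152253) combined a large increase with one of the largest spreads, with an SD of 1.21 over tumors. The glands were close together, at 1.37, 1.48 and 1.33. IR-3W tumors ran from 0.78 in IR-3W3 through a median of 2.11 to 4.86 in IR-3W1, IR-7W tumors from 2.74 through 3.55 to 4.69, and Spontaneous tumors from 2.03 through 3.25 to 4.84. Every IR-7W and Spontaneous tumor was above the glands, while IR-3W3 and IR-3W2, at 0.82, were below them. Limma gave a difference of 1.496 ± 0.531 (SE) between IR-7W and IR-3W, with an adjusted p of 0.541.

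The most variable probe was A_45_P04174116 (rn4 chr4:184212671-184212715), with an SD of 1.22. It had 1.45, 1.53 and 1.27 in the glands. The tumors ran from -0.003 in Spontaneous7 and 0.01 in IR-3W3 through a median of 1.51 to 4.14 in IR-7W6, so that 8 were under 1, 6 in the range and 7 over 2. IR-3W tumors had a median of 0.60 with IR-3W1 at 3.13, and IR-7W tumors had a median of 2.70 with none under 1. The difference between IR-7W and IR-3W was 1.38 ± 0.57 (SE, limma), with an adjusted p of 0.670.

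A_45_P07412370 (rn4 chr9:74700305-74700349), with an SD of 1.19, had 1.03, 1.05 and 1.30 in the glands. IR-3W tumors ran from 0.53 in IR-3W3 through 2.79 to 4.75 in IR-3W1, IR-7W tumors from 0.99 through 1.81 to 2.98, and Spontaneous tumors from 1.104 through 2.63 to 4.48. Unlike the 2 probes before it, this one had its lower group mean in IR-7W, at 1.92 against 2.88 in IR-3W, with a difference of -0.96 ± 0.56 (SE) and an adjusted p of 0.812 by limma.

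**Figure D4:**
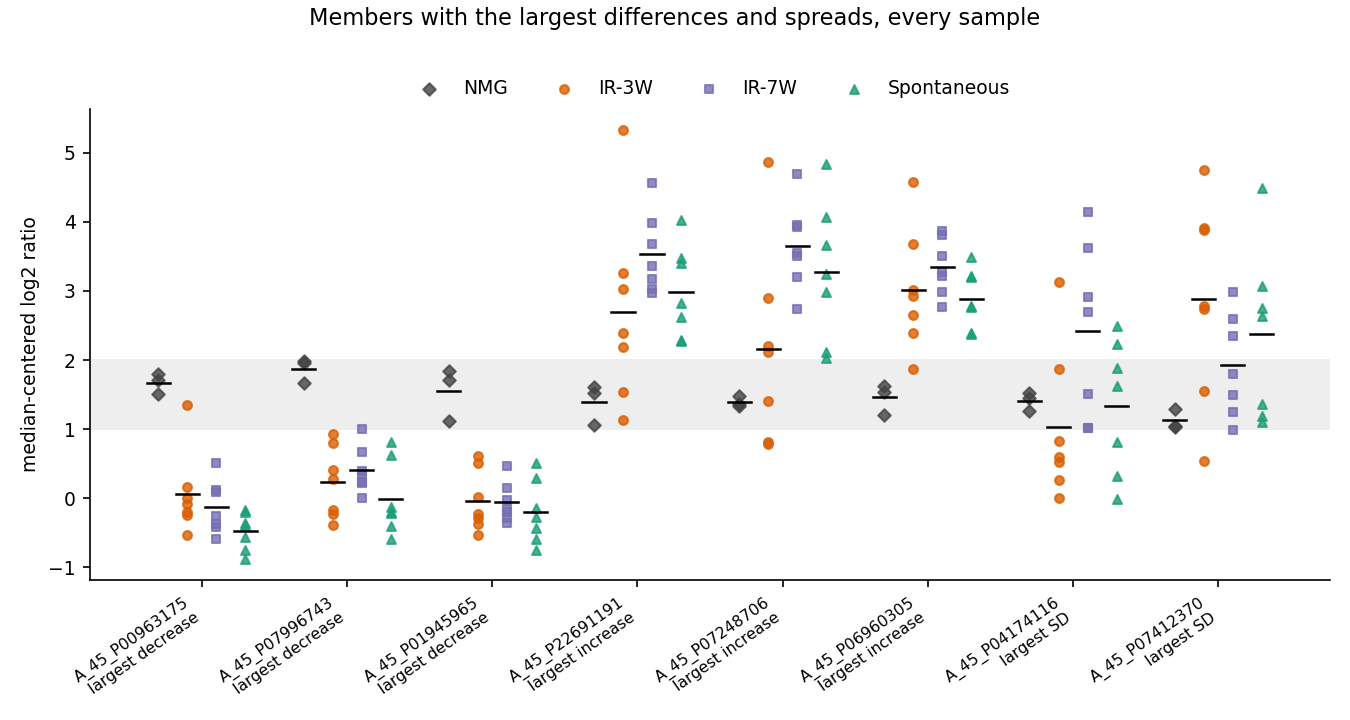
Median-centered log2 ratio of the 8 probes with the largest decrease, increase or spread in every sample, with group means as black bars and the range of the rule in grey. Low probes lie below the glands in all groups, whereas high and variable probes spread over several log2 units, with IR-3W1 highest and IR-3W3 lowest among IR-3W tumors at A_45_P22691191 and A_45_P07248706.

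The 10 probes over 2 in all tumors lay in 5 runs on 4 chromosomes. Of these 10, 4 belonged to a single run on chromosome 15. At A_45_P10221161 (rn4 chr15:66392745-66392789) the glands had 1.504, 1.122 and 1.605, and the tumors ran from 2.05 in IR-3W3 through a median of 3.00 to 3.95 in IR-3W1. At A_45_P23876578 (rn4 chr13:71296714-71296758) the glands had 1.82, 1.27 and 1.34, and the tumors ran from 2.14 in Spontaneous7 through 2.91 to 3.57 in IR-7W6. Spontaneous7, IR-3W3, IR-3W7 or Spontaneous3 was the lowest tumor at each of the 10 probes. At the other extreme, A_45_P00967636 (rn4 chr1:208070747-208070796) kept all tumors in the range, from 1.01 through 1.25 to 1.68, with 1.38, 1.43 and 1.34 in the glands, and A_45_P06948553 on chromosome 8 was the only other one to do so.

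The run with the most intermediate probes lay on chromosome 10, with 7 among 17 probes over 1327 bp (rn4 chr10:85743585-85744911). The mean of the 7 was 1.51, 1.65 and 1.59 in the glands. In tumors it ran from 0.98 in Spontaneous4 and Spontaneous7 to 4.01 in IR-3W1, so tumors lay on both sides of the gland level. IR-3W tumors ran from 1.67 to 4.01, IR-7W tumors from 1.90 to 3.44 and Spontaneous tumors from 0.98 to 3.60. All 10 other probes of the run had a higher mean in tumors, by 0.85 on average, against 0.86 for the 7.

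The second run lay on chromosome 15, with 6 among 35 probes over 2721 bp (rn4 chr15:66391773-66394493). The mean of the 6 was 1.554, 1.19 and 1.73 in the glands, and every tumor was above it, from 2.19 in IR-3W3 to 3.90 in IR-3W1. All 29 other probes were higher in tumors too, by 1.33 on average, including the first probe of the run, which had a gland mean of -1.01.

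A run on chromosome 1 had 5 among 19 probes over 2535 bp (rn4 chr1:203835875-203838409), and was taken by position among the 5 runs with 5 intermediate probes. The mean of its 5 was 1.57, 1.24 and 1.69 in the glands. IR-3W tumors ran from 1.26 in IR-3W7 to 3.53 in IR-3W1, IR-7W tumors from 2.09 to 2.97, and Spontaneous tumors from 1.35 in Spontaneous7 to 3.23 in Spontaneous1. Except for IR-3W7, Spontaneous7 and IR-3W3 at 1.42, every tumor lay above all 3 glands.

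**Figure D5:**
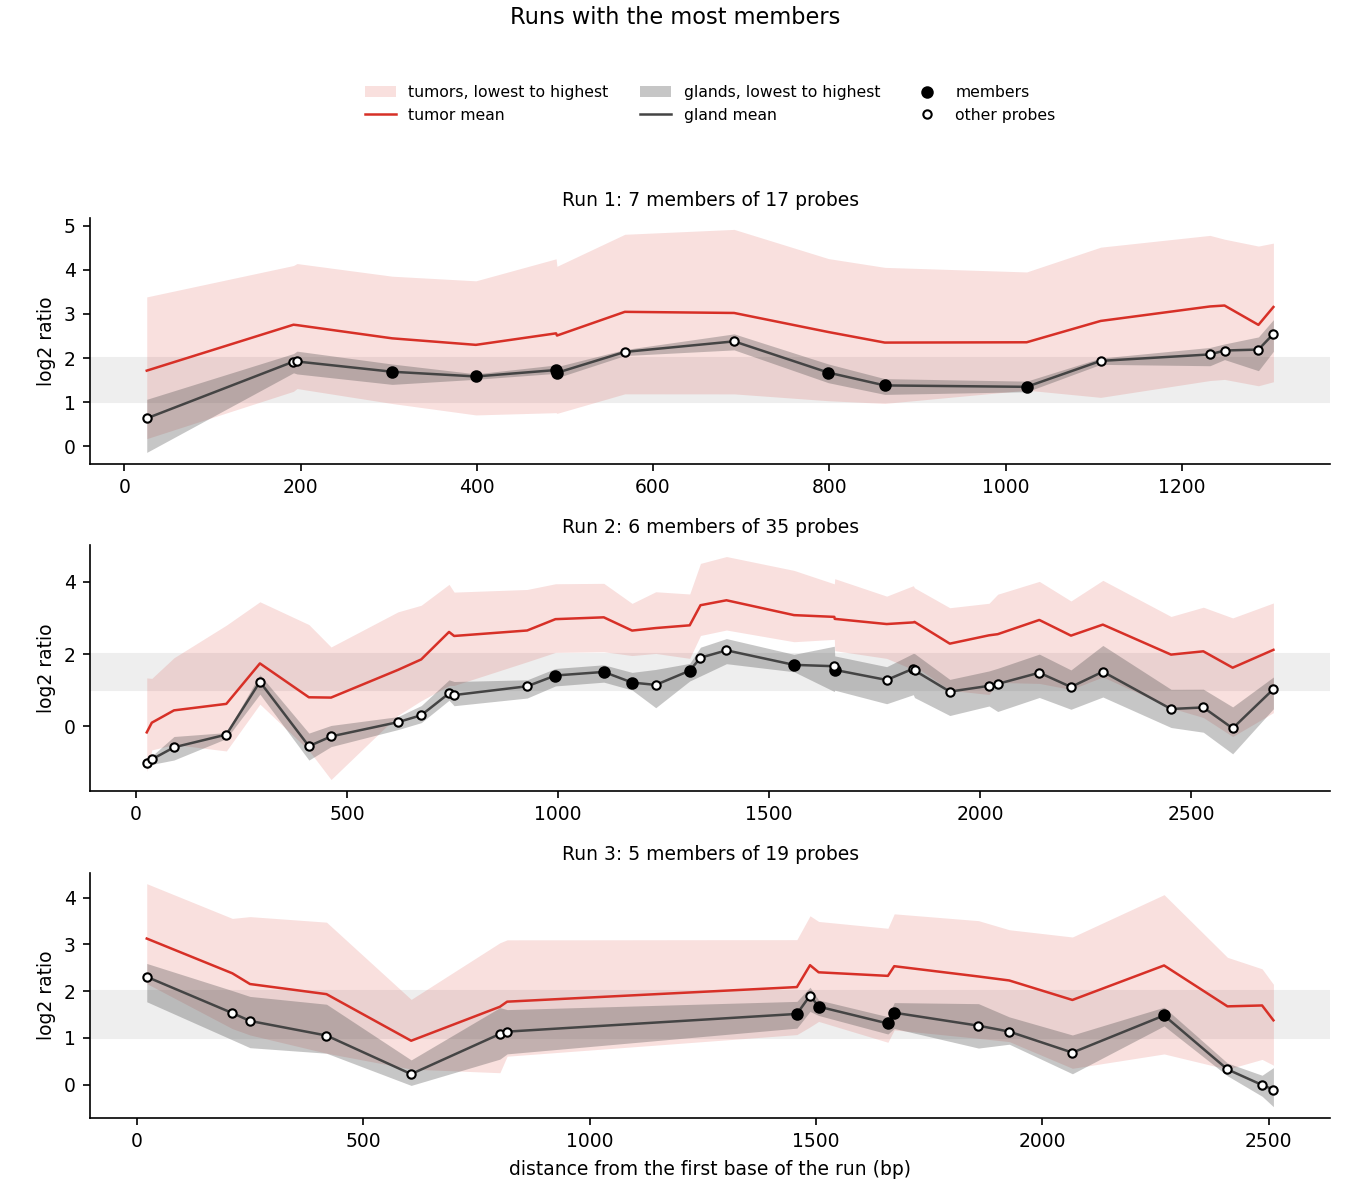
Log2 ratio along the 3 runs with the most intermediate probes, against distance from the first base of the run (bp), with gland mean and range in grey, tumor mean and range in red, and intermediate probes as filled circles. Tumor means lie above gland means along the whole of each run, and the tumor range is wide, from 0.98 to 4.01 for the mean of the 7 probes of the first run.

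Differences among tumor groups could be tested, since tumor values had no part in the rule. Each pair of groups was compared with limma over all 93024 probes. Between IR-7W and IR-3W no intermediate probe passed an adjusted p of 0.05, with 0.0% of all probes passing. The methods' t-test also called none, with 124 intermediate probes (8.18%) and 6.05% of all probes at an unadjusted p under 0.05. By limma, at an unadjusted p under 0.05, 137 intermediate probes (9.04%) were found against 6.5% of all probes. In IR-7W 91 of them were higher and 46 lower, against 4.1% and 2.4% of all probes. The balance moved with the setting, although more were higher than lower in each one run. It was 73 higher and 58 lower with 1 tumor per rat, against 3.26% and 3.05% of all probes, and 172 and 42 with arrays scaled to the same SD, against 4.96% and 2.86%. Without IR-3W1 it was 147 and 41, against 4.64% and 2.46%. With normexp it was 97 and 22, while all probes turned to 2.02% higher and 2.15% lower. With slide as a block, which rests on the 4 slides that hold a tumor of each group, it was 82 and 14, against 2.66% and 1.32%. With arrays scaled to the same SD, 8 intermediate probes (0.528%) passed the adjusted threshold, against 0.138% of all probes. With quantile normalization 1 did (0.066%, against 0.014%), and without IR-7W7 4 did (0.264%, against 0.0881%).

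The smallest p among the intermediate probes in this comparison was at A_45_P10815798 (rn4 chr16:80327889-80327933). It had 1.75, 1.35 and 1.86 in the glands. IR-3W tumors ran from 1.51 through a median of 1.91 to 2.09, IR-7W tumors from 2.26 through 2.78 to 3.01, and Spontaneous tumors from 1.68 through 2.52 to 3.43. The IR-3W and IR-7W tumors did not overlap, and the difference was 0.84 ± 0.14 (SE), with an adjusted p of 0.109 by limma. The adjusted p was 0.0466 with arrays scaled to the same SD and 0.0470 without IR-7W7.

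Between IR-3W and Spontaneous tumors 8 probes of the array (0.0086%) passed the adjusted threshold, and none was an intermediate probe. At an unadjusted p under 0.05, 207 intermediate probes (13.7%) were found against 10.2% of all probes, with 153 of them higher and 54 lower in IR-3W, against 5.75% and 4.48% of all probes. Without Spontaneous6 the count was 275 (18.1%, against 17.3% of all probes), and without IR-3W6 it was 141 (9.3%, against 8.94%). The share was below that of all probes without Spontaneous1 (11.1%, against 12.8%) and with the replicate number as a block (15.4%, against 17%). The balance of directions turned with scan day as a block, where 79 were higher and 127 lower, against 2.81% and 4.93% of all probes. That fit compares the groups only on the 2 scan days that hold both, with 5 IR-3W and 3 Spontaneous tumors. It turned as well with arrays scaled to the same SD, where 121 were higher and 173 lower, against 7.11% and 5.56%. These groups share a single slide, with IR-3W5 and Spontaneous6, so the fit with slide as a block rests on 1 tumor against 1 and nothing is read from it. The adjusted threshold was passed by 2 intermediate probes (0.132%) with scan day as a block, against 0.0785% of all probes. The smallest p was at A_45_P07804117 (rn4 chr10:35787721-35787765), which had 1.42, 1.04 and 1.53 in the glands. IR-3W tumors ran from 0.77 through 1.07 to 1.59, IR-7W tumors from 0.02 through 0.45 to 0.96, and Spontaneous tumors from 0.15 through 0.31 to 0.70. All IR-3W tumors lay above all Spontaneous tumors, with a difference of 0.78 ± 0.15 (SE) and an adjusted p of 0.316 by limma.

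Between IR-7W and Spontaneous tumors no probe passed the adjusted threshold, intermediate or other (0.0%). At an unadjusted p under 0.05, 70 intermediate probes (4.62%) were found against 3.93% of all probes, with 66 higher in IR-7W (2.38% of all probes) and 4 lower (1.55% of all probes). Without Spontaneous6 the count was 206 (13.6%, against 9.09% of all probes), and without IR-7W6 it was 35 (2.31%, against 3.04%). With scan day as a block 45 were found (2.97%, against 3.30%), of which 30 were higher and 15 lower, against 1.6% and 1.69% of all probes. IR-7W and Spontaneous tumors also share a single slide, with IR-7W4 and Spontaneous5, and nothing is read from the fit with slide as a block. At A_45_P03837034 (rn4 chr4:117955121-117955176), with the smallest p, the glands had 1.57, 1.25 and 1.72. IR-7W tumors ran from 1.91 through 2.81 to 3.41, Spontaneous tumors from 1.105 through 1.58 to 2.73, and IR-3W tumors from 0.87 through 2.197 to 4.86. IR-7W and Spontaneous tumors overlapped, and the difference was 0.99 ± 0.29 (SE), with an adjusted p of 0.911 by limma.

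At the edges of the range, the probes just inside and just outside behaved as variously as the rest. A_45_P26870464 on chromosome 20, at 1.0003 in NMG1, had all tumors under 1, from -0.81 to 0.56. A_45_P20282899 on chromosome 6, at 1.0004 in NMG3, had tumors from 1.35 to 2.79. Just outside, A_45_P01155140 on chromosome 1, at 0.9999 in NMG2, had tumors from 0.22 to 1.797, and A_45_P17210010 on chromosome 2, at 0.99996 in NMG2, had tumors from 0.25 to 3.098. At the upper edge, A_45_P03021252 on chromosome 3, at 1.9997 in NMG3, had tumors from 1.48 to 3.68, and A_45_P07798142 on chromosome 10, at 1.9994 in NMG3, had them from 1.63 to 4.45. Just above that edge, A_45_P03021023 on chromosome 3, at 2.0002 in NMG1, had tumors from 0.11 to 4.57, and A_45_P19964674 on chromosome 6, at 2.0005 in NMG3, had them from 0.76 to 4.60.

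Pairs of tumors were compared after each probe was centered on its mean over the 21 tumors, which removes what the tumors share and pulls the average over pairs below 0. Pearson's r over the intermediate probes had a median of -0.08 over the 210 pairs, from -0.48 to 0.58. It had a median of 0.19 over the 10 pairs on the same slide. The pairs from a single rat had 0.28 for IR-3W6 and IR-3W7 and 0.08 for IR-7W1 and IR-7W2. The highest pair was Spontaneous4 and Spontaneous7, which share a slide and both have narrow arrays. These values run across probes that are not independent of each other.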

How the data were processed

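Methylated DNA was enriched with a methyl-CpG binding domain protein and hybridized with unenriched DNA of the same sample to 1 dual-color CpG island array per sample, over 12 slides and 6 scan days. The authors deposited scanner output of Agilent Feature Extraction 10.7.3.1 (per the submitters' processing notes), in which spot intensity had been background-subtracted and dye-normalized, together with a log10 ratio per spot. The authors also deposited a table of log2 ratios, used as an alternative. The LogOdds score of the study, which compares probes of equal melting temperature, was not used here.

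The log2 ratio of the processed Cy5 to Cy3 signals had the array median over non-control probes subtracted. Cy3 and Cy5 signals given alone were log2 values centered in the same way. Intermediate probes, probe runs (at most 1000 bp between probes) and named probes were chosen with earlier results of these data known. Probes were named as the 3 with the largest decrease, increase and SD over tumors, the smallest p in each comparison where none passed, the probes nearest each edge of the range, and the 3 runs with the most intermediate probes. The probes over 2 or in the range in all tumors were named after their values were seen. Planned gene lists were not used here.

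Tumor groups were compared in pairs with limma 3.58.1 in R 4.3.3 (lmFit and eBayes, only the arrays compared, Benjamini-Hochberg adjustment over all probes). With 7 arrays a group, the number of arrays limits the precision. The p-values weigh a difference of means against the spread between these tumors. In the main fit, tumors from the same rat were counted as separate. The limma step was checked on a simulation of all 93024 probes in which 200 were shifted by 4 SD. For IR-7W and IR-3W it recovered 192, with 14 false calls. The simulated probes were independent of each other and the shift was large, so nothing is read from this about smaller differences. The alternatives were other measures, background correction (normexp, offset 50, on median spot signals, as the files hold no mean signals), centering, scaling, filters, ranges, blocks, tests and single arrays left out. Python 3.11.15, numpy 2.4.6 and pandas 2.3.3 were used.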

Additional observations from a re-analysis of the deposited data

Results flagged for a closer look

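Single tumors were compared with the others of their group by Dixon's test for the share of intermediate probes under 1, the share over 2, the median level, the levels of the 15 named intermediate probes and the means of the 3 runs, in 63 groups of 7 tumors in all. Chance gives about 1 in 20, or 3.15 of the 63, and 2 values passed.

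The share of intermediate probes over 2 was 38.6% in IR-3W1, and the next highest IR-3W tumor, IR-3W5, had 21.4%. This tumor also had the widest array, and with arrays scaled to the same SD its share was 15.4%, within the range of the other IR-3W tumors.

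The level of A_45_P00963175 was 1.34 in IR-3W3, while the next highest IR-3W tumor, IR-3W7, had 0.16. It was the only tumor from 1 to 2 at this probe, and it lay below all 3 glands.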

How the results depend on the processing

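The number of intermediate probes depended most on where the range was set. It was 342 for a range from 1.2 to 1.8, 3924 for 0.8 to 2.2 and 514 with normexp background correction, and from 2151 to 3660 with a gland left out of the rule, most without NMG2. The share of values under the range was 62.3% for the narrow range, 39.2% for the wide range, 35.2% with normexp, 37.8% with arrays scaled to the same SD, and from 38.2% (without NMG2) to 52.8% with 1 array left out. The share over the range stayed within the spread between tumors of its value in every setting, with 13.7% for normexp against 21.01%, and from 20.1% to 28.0% with 1 array left out. The median difference was -0.55 for the narrow range, -0.040 with scaling, and from -0.34 to -0.017 (without NMG3) with 1 array left out. The share of probes lower in tumors was 69.6% for the narrow range, 52.2% with scaling, 69.7% with quantile normalization (chosen after seeing the data), and from 50.9% to 61.7% with 1 array left out.

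Probes under the range in all tumors numbered 112 for the narrow range, 588 for the wide range, 16 with normexp, and from 320 to 854 (without NMG1) with 1 array left out. Probes over the range in all tumors numbered 5 for the narrow range, 0 with normexp, 17 with scaling, 20 without the 3 tumors of widest or narrowest spread (chosen after seeing the data), and from 10 to 36 with 1 array left out, 17 of them without IR-3W3. Probes with tumors on both sides numbered 141 and 1085 for the narrow and wide ranges and from 447 to 2040 with 1 array left out. The median SD over tumors was 0.56 with normexp and from 0.41 to 0.53 with 1 array left out. The causes were not tested.

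For IR-7W against IR-3W, the array held 2 calls with all 24 arrays in the fit, 1 with 1 tumor per rat, 128 with scaling and 13 with quantile normalization, and from 0 to 82 with 1 tumor left out. Intermediate probes called were 8 with scaling, 1 with quantile normalization, and from 0 to 4 with 1 tumor left out, in each case the highest without IR-7W7. For IR-3W against Spontaneous, the 8 calls of the array became 1 with the methods' t-test, 0 with all arrays in the fit, with normexp and with a slide block (where only IR-3W5 and Spontaneous6 share a slide, so that its 0 says nothing of the other tumors), 73 with a block for scan day, 4 with 1 tumor per rat, 16 with scaling, 21 with quantile normalization, and from 0 to 9 with 1 tumor left out. Intermediate probes called were 2 with scan day as a block, with scaling and with quantile normalization, and 0 with any 1 tumor left out. For IR-7W against Spontaneous, 0 probes were called in every setting, although limma found 3652 probes at an unadjusted p under 0.05 and the methods' t-test 3971, with from 35 to 206 intermediate probes at an unadjusted p under 0.05 with 1 tumor left out. At the methods' own unadjusted threshold of 0.005, their t-test found 30 (1.98%), 16 (1.06%) and 4 (0.264%) intermediate probes in the 3 comparisons, against 0.946%, 1.05% and 0.344% of all probes, and after Benjamini-Hochberg adjustment 0 in each.

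With the replicate number as a block, 0 probes were called for IR-7W against IR-3W, 0 for IR-3W against Spontaneous and 0 for IR-7W against Spontaneous. Same-numbered tumors had correlations of deviations from -0.22 to 0.52, so the numbers did not pair the tumors. At an unadjusted p under 0.05 the block gave 120 intermediate probes (7.92%) in the last comparison, where 4.54% of all probes passed, against 70 (4.62%) without it, where 3.93% passed. The block ended the 8 calls of IR-3W against Spontaneous.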
